A study of Homo sapiens with 6 samples.

Results

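Interferon-stimulated genes are the genes that cells switch on after exposure to interferon, and 46 of them were followed here in breast cancer cells in which N6AMT1, a methyltransferase studied as a writer of DNA 6mA, had been silenced. The members were a fixed list of symbols covering type I interferon effectors, RNA sensors and their transcription factors, matched through Ensembl identifiers to 46 of the 62438 genes of the count table. All 46 had counts in these libraries, and all 46 were among the 17320 genes that passed the filter on low counts and were tested. The cells were labelled as MDA-MB-453, an established human breast cancer line, and gave 3 RNA libraries after transfection with si-N6AMT1 and 3 after a scrambled siRNA (si-CN), each at 10 nM and harvested at 48 h. Both groups therefore carried an siRNA and the same lipid transfection reagent, and no untransfected library was analysed, so the level of these genes before transfection is not known. The sources name an siRNA against N6AMT1 without giving its sequence, and the 3 libraries of a group came from triplicate cells of 1 line whose independence is not described further, so the p-values below measure the spread between these libraries.

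Interferons are secreted proteins that bind receptors at the cell surface and act through kinases. For type I interferons, the kinases JAK1 and TYK2 phosphorylate STAT proteins, STAT2 among them, which join IRF9 to form the factor ISGF3. ISGF3 binds a short element, the interferon-stimulated response element (ISRE), in the promoters of its target genes, whereas interferon gamma acts mainly through another element, GAS. Many of the resulting proteins act on viral RNA, on translation or at membranes that viruses cross, and in tumour cells the same genes can be active without infection.

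Library totals ran from 19739247 to 21289740 estimated counts, and N6AMT1 itself had 3.08, 3.53 and 2.93 CPM (counts per 1000000, scaled by TMM) in si-N6AMT1 against 6.93, 6.86 and 6.65 CPM in si-CN libraries (log2 fold change -1.10, edgeR FDR = 3.65e-07). Markers went partly against the labelled line. Of 10 luminal markers listed, 8 passed the filter. Those described here are a part of the list, and the low ones do not stand for all of it. KRT8, KRT18 and EPCAM were abundant, but KRT19, another luminal keratin, had 8 to 14 counts per library. The luminal factors FOXA1 and GATA3 were low, at 8.42 and 2.67 CPM in si-CN libraries, and SPDEF had 1 to 6 counts per library and was not tested. Of these luminal markers, KRT8 and KRT18 were higher and EPCAM was lower in si-N6AMT1 libraries, by 0.12, 0.08 and -0.12 on the log2 scale (edgeR FDR = 0.000126, 0.0150 and 0.000794). The basal markers KRT5, KRT14 and TP63 were high, and all 3 were upregulated, by 0.11, 0.18 and 0.14, with a summed level of 1171 to 1191 CPM in si-N6AMT1 and 1073 to 1109 CPM in si-CN libraries. Of 7 leukocyte markers, all 7 had a count somewhere, but only CD68, a lysosomal protein, passed the filter, and the list summed to 196 to 205 CPM in si-N6AMT1 against 142 to 143 CPM in si-CN libraries. Of 3 markers of plasmacytoid dendritic cells, the main producers of type I interferon in blood, LILRA4 and CLEC4C were at or near 0. The third, IL3RA, had 51 to 98 counts per library and was not called (log2 fold change 0.33, edgeR FDR = 0.159). The part of these marker shifts in the results below was not tested.

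Promoter sequences of the members are shown first because the ISRE is what most of these genes share by sequence, whichever way they moved. The core was searched on both strands as GAAANNGAAA, in windows of 250 bases before to 50 after each annotated start (RefSeq, GRCh38.p14). It was found in 26 of the 38 members with an entry (68.4%), against 1195 of 27305 genes with an entry (4.38%). The entries did not include USP18, MX2, IFIT2, OAS2, OASL, IRF7, IFITM2 and DHX58. Each line below is 40 bases read along the strand of the gene, with the matched core in capitals. In IFIT1, HERC5 and RSAD2 the core lies on the opposite strand, so the capitals show its reverse complement. The first 6 belong to genes that were upregulated in si-N6AMT1 libraries, and the last 3 to genes that were downregulated.
IFI6: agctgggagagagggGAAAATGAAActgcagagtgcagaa
IFI27: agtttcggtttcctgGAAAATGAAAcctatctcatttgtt
IFI44L: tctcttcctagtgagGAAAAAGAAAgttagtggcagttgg
LGALS3BP: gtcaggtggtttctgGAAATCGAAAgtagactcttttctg
IFIT1: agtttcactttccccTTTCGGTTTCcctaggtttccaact
ISG15: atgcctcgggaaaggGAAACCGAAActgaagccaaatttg
DDX60: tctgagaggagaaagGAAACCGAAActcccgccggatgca
HERC5: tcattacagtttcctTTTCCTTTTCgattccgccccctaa
RSAD2: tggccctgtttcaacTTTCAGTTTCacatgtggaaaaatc

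The windows lie at chr1:27672283-27672322 (minus strand) for IFI6, chr14:94110626-94110665 (plus) for IFI27 and chr1:78620360-78620399 (plus) for IFI44L. Those of LGALS3BP, IFIT1 and ISG15 are at chr17:78979957-78979996 (minus), chr10:89392505-89392544 (plus) and chr1:1013375-1013414 (plus). The windows of DDX60, HERC5 and RSAD2 are at chr4:168318781-168318820 (minus), chr4:88456985-88457024 (plus) and chr2:6877617-6877656 (plus). In the rising genes IFI6 and IFI27 the core shown reads GAAAATGAAA in both, and in the rising ISG15 and the falling DDX60 it reads GAAACCGAAA in both. IFI6 holds up to 3 cores in a window and IFI27, ISG15 and DDX60 up to 2 each, and these include cores with other letters. Among the 26 members with a core, 16 were upregulated and 3 downregulated, and their median log2 fold change was 0.14. Among the 12 members with an entry and no core, 5 were upregulated and 1 downregulated, and the median was 0.12. Over all genes tested, 9.78% were upregulated and 11.5% downregulated, and the median was 0.0039. For genes at 22.5 to 682 CPM, the range of the central members, these values were 15.6%, 21.0% and -0.0064. The GAS element, searched as TTCNNNGAA, was found in 11 of the 38 members (28.9%) and in 9.38% of all genes with an entry. A match of letters in this window is a description of the sequence and does not show that a factor was bound.

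The interferon-stimulated genes were mostly higher after N6AMT1 silencing, by small amounts. At an FDR under 0.05 (edgeR's quasi-likelihood test, Benjamini-Hochberg adjusted over all 17320 genes), 24 of the 46 members were upregulated (52.2%) and 4 were downregulated (8.70%), while 18 were not called. Of all genes tested, 9.78% were upregulated and 11.5% downregulated. The members are more abundant than most genes, so the same shares were taken in the 7701 genes within the CPM range of the central members (22.5 to 682 CPM), where 15.6% were upregulated and 21.0% downregulated. The median log2 fold change of the members was 0.11, against 0.0039 for all genes tested and -0.0064 for genes in that CPM range.

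Most changes stayed under 1.2-fold. Called and at least 1.2-fold higher were 7 members, XAF1, IFI6, IFI27, IFI44L, LGALS3BP, IFITM1 and IRF1, and 0 were called and at least 1.2-fold lower, against 2.83% and 2.95% of all genes tested. Without any model, all 3 si-N6AMT1 libraries lay above all 3 si-CN libraries in 27 members and below them in 5, against 16.8% and 18.0% of all genes, and the groups overlapped in 14. Of the 28 calls, 21 were also made under each of 14 alternative settings, and those of IFIT5, ISG15, IFIH1, PARP14, RSAD2, BST2 and ADAR were lost under at least 1. The 46 genes together took 1.09%, 1.09% and 1.09% of all counts in the si-N6AMT1 libraries, and 0.963%, 0.960% and 0.959% in the si-CN libraries. In bulk RNA, more RNA per cell and more cells with high expression cannot be told apart.

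**Figure D1:**
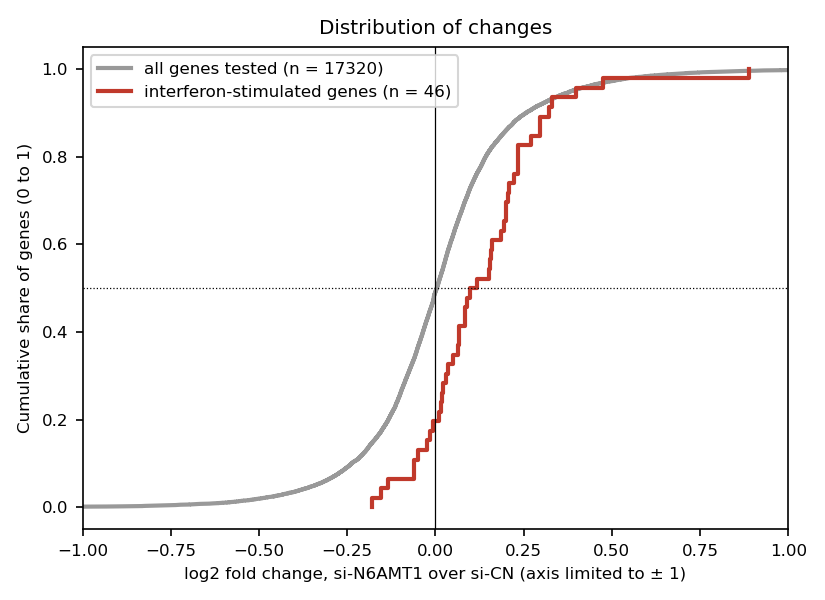
Cumulative share of genes (0 to 1, vertical axis) by log2 fold change of si-N6AMT1 over si-CN (horizontal axis, limited to 1 on either side), for all 17320 genes tested (grey) and the 46 interferon-stimulated genes (red). The red curve lies to the right of the grey one over most of its course, with medians of 0.11 and 0.0039, and 37 of the 46 members have a positive value.

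**Figure D2:**
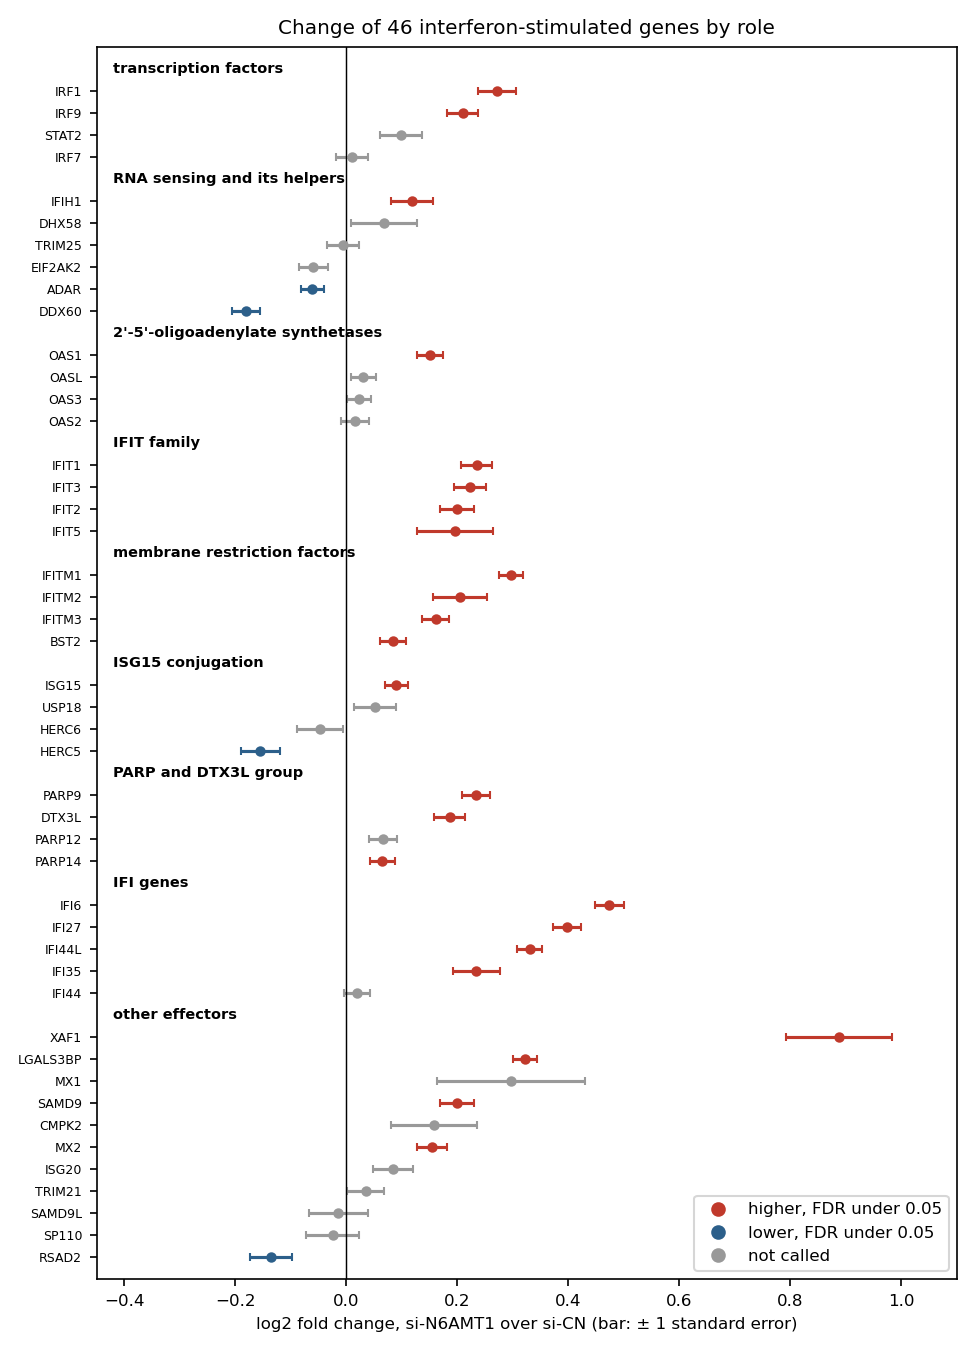
Log2 fold change of each of the 46 genes (points) with 1 standard error on either side (bars), grouped by role and coloured by the edgeR call at an FDR under 0.05 (red higher, blue lower, grey not called). The IFIT and membrane groups are red throughout, whereas RNA sensing and ISG15 conjugation hold blue, grey and red points.

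The interferon-stimulated genes were already strongly expressed in si-CN cells. Per transcript length, their median level was 77.1 TPM (transcripts per 1000000, estimated from the reference transcript of each gene), against 19.1 TPM for 13362 protein-coding genes tested, and 11 members were among the 1000 highest protein-coding genes. The highest was IFITM3, a membrane protein that blocks viral entry, at 2917 ± 63.7 TPM (SD, n = 3). ISG15, a ubiquitin-like modifier, followed at 2501 ± 17.7 TPM, and IFITM1, a relative of IFITM3, at 2356 ± 28.3 TPM. IFI6 had 1775 ± 12.1 TPM and IFI27 1455 ± 42.7 TPM, and these first 5 did not overlap between neighbours in the order. LGALS3BP at 857 ± 31.4 TPM and BST2 at 821 ± 13.1 TPM overlapped. At the other end were 5 members under 10 TPM, IFIT5, CMPK2, SAMD9L, XAF1 at 5.60 ± 0.906 TPM and MX1 at 3.14 ± 0.218 TPM. MX1, a dynamin-like GTPase used in many studies to read out interferon, thus stood far below its relative MX2 at 66.4 ± 0.803 TPM. Across the 46 genes, Spearman's rho between level and change was 0.149 and Pearson's r, on log2 TPM, was 0.0578 (n = 46 genes from the same libraries, given as a description).

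Upstream of the members, the interferon genes themselves were scarcely detected. Of 21 interferon genes listed, 8 had no count in any library and 15 had fewer than 10 counts over all libraries together. The type III interferon IFNL1 had the most counts of the list, with 71, 64 and 64 counts in si-CN and 66, 81 and 75 in si-N6AMT1 libraries. IFNB1, the type I interferon that most cells make first, had 13, 9 and 6 counts in si-CN and 10, 15 and 9 in si-N6AMT1 libraries. Both overlapped between groups. Only 4 interferon genes passed the filter (IFNB1, IFNE, IFNL1 and IFNL2), with log2 fold changes of 0.15 to 0.27, and none was called by edgeR at this depth.

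Among 18 receptors, kinases and regulators of interferon signalling, 3 were upregulated and 3 downregulated (16.7% each), and every called change was under 1.2-fold. These shares stand beside 9.78% and 11.5% of all genes tested, and 15.6% and 21.0% of genes in the CPM range of the central members. The receptor chains IFNAR2, for type I interferon, and IFNGR1 and IFNGR2, for interferon gamma, rose by 0.14, 0.11 and 0.12 on the log2 scale (edgeR FDR = 0.0189, 0.0129 and 0.00301). IFNAR2 had 40.9, 43.0 and 40.8 CPM in si-CN and 45.6, 46.9 and 44.5 CPM in si-N6AMT1 libraries, which did not overlap. The feedback inhibitor SOCS3 fell by 0.20 and the phosphatase PTPN11 fell by 0.13 on the log2 scale (edgeR FDR = 0.000322 and 0.00121). Of 18 tested genes of nucleic acid sensing outside the members, 3 were upregulated (16.7%) and none was called lower. Of genes in the CPM range of the central members, 15.6% were upregulated, a similar share, and 21.0% downregulated. The kinase TBK1, the factor IRF3 and the DNA sensor CGAS rose by 0.14, 0.13 and 0.17 on the log2 scale (edgeR FDR = 0.0118, 0.0123 and 0.0165).

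Of the 4 transcription factors among the members, IRF1 and IRF9 were upregulated and STAT2 and IRF7 were not called. IRF1, which is induced by interferon gamma and binds ISRE-like sites on its own, had 64.2, 62.3 and 64.0 CPM in si-CN and 74.1, 76.2 and 79.6 CPM in si-N6AMT1 libraries (log2 fold change 0.27, standard error 0.0347, edgeR FDR = 3.82e-06). IRF9, the DNA-binding part of ISGF3, had 109, 108 and 104 CPM in si-CN and 123, 122 and 124 CPM in si-N6AMT1 libraries (log2 fold change 0.21, edgeR FDR = 5.66e-06). Both genes separated the groups completely. The count of IRF9 is shared in part with ENSG00000259529, an overlapping gene on the same strand. Its transcripts together hold 92.9% of the 31-base words of the IRF9 reference transcript. That gene had 60 to 76 counts in si-CN and 128 to 138 in si-N6AMT1 libraries, so its estimate rose too (log2 fold change 1.01, edgeR FDR = 3.12e-06). STAT2, the partner of IRF9, had 61.6, 64.6 and 63.3 CPM in si-CN and 64.0, 68.9 and 70.0 CPM in si-N6AMT1 libraries, which overlapped (log2 fold change 0.10, edgeR FDR = 0.0688). IRF7, which amplifies type I interferon production, had 86.9, 89.0 and 89.4 CPM against 88.2, 88.5 and 90.4 CPM in the same order (log2 fold change 0.01, standard error 0.0295).

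The IFI genes, a set of interferon-induced genes named by number rather than by function, had the highest median log2 fold change of the 9 roles, 0.33, and 4 of 5 were upregulated. IFI6, a membrane protein of the endoplasmic reticulum with antiviral activity, had 662, 642 and 639 CPM in si-CN and 887, 946 and 867 CPM in si-N6AMT1 libraries. All 3 si-N6AMT1 libraries thus stood well above the controls, a 1.39-fold rise (log2 fold change 0.47, standard error 0.0262, edgeR FDR = 9.33e-12). IFI27, a hydrophobic membrane protein of the same family, had 491, 456 and 459 CPM in si-CN and 616, 606 and 628 CPM in si-N6AMT1 libraries (1.32-fold, log2 fold change 0.40, edgeR FDR = 8.93e-11). IFI44L had 226, 222 and 230.0 CPM in si-CN and 286, 281 and 286 CPM in si-N6AMT1 libraries (1.26-fold, log2 fold change 0.33, edgeR FDR = 3.82e-10). The groups were separate for both. IFI35, a partner of NMI, rose by 0.23 on the log2 scale. IFI44, the neighbour of IFI44L, was at 285, 275 and 284 CPM in si-CN and 282, 287 and 286 CPM in si-N6AMT1 libraries and was not called (log2 fold change 0.02, edgeR FDR = 0.625).

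XAF1, a pro-apoptotic protein that binds the caspase inhibitor XIAP, changed most among the members by fold and was one of the scarcest. Its values were 10.3, 7.62 and 7.87 CPM in si-CN and 15.8, 17.0 and 14.8 CPM in si-N6AMT1 libraries, resting on 150 to 203 and 304 to 348 counts per library. The groups were separate, and the ratio was 1.85-fold (log2 fold change 0.89, standard error 0.0955, edgeR FDR = 3.28e-07). XAF1 shares 74.0% of its 31-base words with PRAL, an overlapping gene on the opposite strand, and the strand setting of the authors' counting is not given in the sources used here. PRAL had 34, 91 and 57 counts in si-CN and 54, 32 and 44 in si-N6AMT1 libraries and was not called (log2 fold change -0.49, edgeR FDR = 0.201). In each group the library with the most XAF1 counts had the fewest PRAL counts. The sum of both genes was 237, 241 and 224 counts in si-CN and 368, 380 and 348 counts in si-N6AMT1 libraries, and the groups stayed separate.

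The membrane restriction factors and the IFIT family were upregulated throughout, 4 of 4 members each. IFITM1, which acts at the plasma membrane, had 719.5, 710.3 and 693 CPM in si-CN and 846, 879 and 881 CPM in si-N6AMT1 libraries (1.23-fold, log2 fold change 0.30, edgeR FDR = 1.02e-09). IFITM3 and IFITM2, which act at endosomes, rose by 0.16 and 0.20 on the log2 scale, and BST2, which tethers budding virions, rose by 0.08 (edgeR FDR = 4.75e-05, 0.00354 and 0.0143). With a correction for GC content, BST2 had a log2 fold change of 0.05 and was not called (edgeR FDR = 0.119). Other genes also hold 59.4% of the 31-base words of IFITM1 and 46.8% of those of IFITM3. For IFITM1, 333 of the 379 shared words are in ENSG00000288681, which has no entry in the count table. The IFITM genes share fewer words with each other, 136 of 581 for IFITM3 with IFITM1 and 101 of 976 for IFITM2 with IFITM3. The split of reads between them carries an uncertainty that the standard errors do not include. The IFIT proteins bind viral RNA at its cap or triphosphate end. IFIT1 had 103, 98.9 and 99.1 CPM in si-CN and 119, 118 and 118 CPM in si-N6AMT1 libraries, without overlap (log2 fold change 0.23, standard error 0.0279, edgeR FDR = 1.35e-06). IFIT2, IFIT3 and IFIT5 rose by 0.20, 0.22 and 0.20 on the log2 scale, so the 4 genes of the cluster moved by nearly equal amounts, although the libraries of IFIT5 overlapped between groups (edgeR FDR = 0.0430).

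The genes of the oligoadenylate synthetase family, of which OAS1, OAS2 and OAS3 make the second messenger of RNase L, did not move together. OAS1 had 179.7, 182 and 179.6 CPM in si-CN and 199, 198 and 204 CPM in si-N6AMT1 libraries (log2 fold change 0.15, edgeR FDR = 5.61e-05). OAS2, OAS3 and OASL had log2 fold changes of 0.01, 0.02 and 0.03, each with a standard error of at most 0.0251, and were not called. OAS3 took the most counts of the 4, at 619.8 ± 9.41 CPM in si-CN and 629.5 ± 15.4 CPM in si-N6AMT1 libraries (SD, n = 3). Per transcript length, OAS1 was the higher, at 246 ± 3.97 TPM in si-CN libraries against 209 ± 5.59 TPM for OAS3.

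Among the 6 sensors of RNA and their helpers, 2 were downregulated and 1 was upregulated. DDX60, a helicase reported to assist RNA sensing, had 202, 212 and 207 CPM in si-CN and 181, 179.9 and 186 CPM in si-N6AMT1 libraries, and every si-N6AMT1 library lay below the controls (log2 fold change -0.18, standard error 0.0251, edgeR FDR = 1.12e-05). This was the largest fall among the 46 genes. ADAR, the adenosine deaminase that edits double-stranded RNA, had 530.3, 537 and 533 CPM in si-CN and 518, 511 and 504 CPM in si-N6AMT1 libraries (log2 fold change -0.06, edgeR FDR = 0.0357). The sensor IFIH1 (MDA5) rose by 0.12 on the log2 scale (edgeR FDR = 0.0285). DHX58 (LGP2), EIF2AK2 (the kinase PKR) and the ubiquitin ligase TRIM25 had log2 fold changes of 0.07, -0.06 and -0.01, with overlapping groups, and were not called.

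The genes of ISG15 conjugation did not move in a single direction. ISG15, the modifier, had 726, 707 and 716 CPM in si-CN and 760.3, 763 and 764 CPM in si-N6AMT1 libraries, a small and uniform rise (log2 fold change 0.09, standard error 0.0200, edgeR FDR = 0.00201). With a correction for GC content, ISG15 had a log2 fold change of 0.03 and was not called (edgeR FDR = 0.308). HERC5, its main ligase, had 89.7, 83.7 and 86.8 CPM in si-CN and 79.8, 74.6 and 79.3 CPM in si-N6AMT1 libraries, without overlap (log2 fold change -0.15, standard error 0.0345, edgeR FDR = 0.00202). USP18, the protease that removes ISG15, and HERC6, a relative of HERC5, were not called (log2 fold changes 0.05 and -0.05). Outside the members, the activating enzyme UBA7 and the conjugating enzyme UBE2L6 of the same pathway were both upregulated, by 0.33 and 0.18 on the log2 scale (edgeR FDR = 0.000131 and 9.09e-05), and were named here after their values had been seen. UBA7 had 21.8, 22.8 and 21.3 CPM in si-CN and 27.0, 26.5 and 29.0 CPM in si-N6AMT1 libraries.

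Of the PARP and DTX3L group, 3 of 4 were upregulated. PARP9, an ADP-ribosyltransferase family member that forms a complex with the ubiquitin ligase DTX3L, had 165, 162 and 161 CPM in si-CN and 193, 195 and 187 CPM in si-N6AMT1 libraries (log2 fold change 0.23, standard error 0.0253, edgeR FDR = 3.63e-07). DTX3L rose by 0.19 on the log2 scale (edgeR FDR = 3.41e-05). The genes lie head to head and hold 1 ISRE core between them, at chr3:122564317-122564356 in GRCh38.p14, shown here along the strand of DTX3L.
DTX3L and PARP9: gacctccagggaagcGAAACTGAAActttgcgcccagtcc

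The same 10 letters in capitals lie just upstream of the PARP9 start and across the DTX3L start. The mono-ADP-ribosyltransferases PARP14 and PARP12 had log2 fold changes of 0.06 and 0.07, and of these PARP14 was called (edgeR FDR = 0.0420 and 0.0652). All 4 genes of the group had si-N6AMT1 libraries above every si-CN library.

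Among 11 other effectors, XAF1, LGALS3BP, SAMD9 and MX2 were upregulated and RSAD2 was downregulated. LGALS3BP, a secreted glycoprotein that binds galectins, had 824, 857 and 863 CPM in si-CN and 1066, 1035 and 1079 CPM in si-N6AMT1 libraries (1.25-fold, log2 fold change 0.32, standard error 0.0224, edgeR FDR = 3.66e-10). SAMD9, a restriction factor for poxviruses, rose by 0.20 and MX2, which restricts HIV, by 0.15 on the log2 scale (edgeR FDR = 3.26e-05 and 0.000211). RSAD2 (viperin), which makes a nucleotide that ends viral RNA chains, had 58.6, 56.1 and 55.6 CPM in si-CN and 53.1, 51.7 and 50.1 CPM in si-N6AMT1 libraries, and each si-N6AMT1 library lay below the controls (log2 fold change -0.14, edgeR FDR = 0.0118). MX1 had a log2 fold change of 0.30, but with 71 to 106 counts per library its standard error was 0.133, its groups overlapped, and it was not called (edgeR FDR = 0.126). The mitochondrial nucleotide kinase CMPK2, the exonuclease ISG20, the antibody receptor TRIM21, SAMD9L and the nuclear body protein SP110 had log2 fold changes of 0.16, 0.08, 0.03, -0.01 and -0.02 and were not called.

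Several members lie side by side in the genome, so the balance between neighbours can be read directly from the counts. Within 100 kb, 13 neighbouring pairs were found (GRCh37), and the ratio of the counts of the 2 genes was taken in each library, which needs no scaling between libraries. This comparison was chosen after the values had been seen. In 6 of the 13 pairs the ratios did not overlap between groups. The same was so in 33.2% of 10391 pairs of neighbouring protein-coding genes tested, and in 48.4% of the 3516 such pairs in which both genes lay in the CPM range of the central members, so separate ratios were about as frequent among the members as among genes of their level. IFI44L had 0.795, 0.808 and 0.810 counts for each count of IFI44 in si-CN libraries, and 1.01, 0.979 and 1.00 in si-N6AMT1 libraries, a difference of 0.31 on the log2 scale. The pair lies on the plus strand of chromosome 1 with 3650 bases between the genes. SAMD9 stood at 4.49, 4.54 and 4.81 counts for each count of SAMD9L in si-CN and at 5.41, 5.16 and 5.49 in si-N6AMT1 libraries, a log2 difference of 0.22. OAS1 over OAS3, IFITM1 over IFITM3 and HERC6 over HERC5 differed by 0.13, 0.14 and 0.11 on the log2 scale. CMPK2 over RSAD2 differed by 0.30, but these genes overlap on opposite strands, and 10.5% of the words of CMPK2 are also in RSAD2. A two-sided exact permutation test gave p = 0.1 for each of the 6, which no comparison of 3 libraries with 3 can go below, and 0.217 after adjustment over the 13 pairs. Ratios within the IFIT cluster, OAS3 over OAS2, MX2 over MX1, IFITM2 over IFITM1 and PARP9 over DTX3L overlapped between groups.

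A further list of 50 interferon-induced genes outside the members, of which 49 were tested, held 18 upregulated genes (36.7%) and 5 downregulated genes (10.2%), with a median log2 fold change of 0.09. Of all genes tested, 9.78% were upregulated and 11.5% downregulated, and of genes in the CPM range of the central members 15.6% and 21.0%. The smallest FDR belonged to LY6E, a GPI-anchored protein with antiviral activity, at 613, 644 and 620.1 CPM in si-CN and 795, 813 and 826 CPM in si-N6AMT1 libraries (log2 fold change 0.38, edgeR FDR = 3.37e-11). The ubiquitin ligase TRIM22, the scramblase PLSCR1 and SLFN5 rose by 0.34, 0.21 and 0.24 on the log2 scale (edgeR FDR = 1.79e-07, 3.11e-07 and 3.40e-05). Falls reached a similar size. GBP1, a guanylate-binding protein induced above all by interferon gamma, had 32.2, 32.8 and 34.3 CPM in si-CN and 25.3, 24.2 and 24.8 CPM in si-N6AMT1 libraries, with no overlap (log2 fold change -0.42, edgeR FDR = 1.06e-06). TRIM26, TRIM5, which blocks retroviral capsids, and SAMHD1, which depletes deoxynucleotides, fell by 0.41, 0.19 and 0.22 on the log2 scale (edgeR FDR = 1.41e-09, 6.48e-05 and 1.81e-05). The tripartite-motif genes moved both ways, with TRIM22 higher, TRIM26 and TRIM5 lower, and the members TRIM21 and TRIM25 not called.

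Because kallisto divides reads between similar transcripts, the share of 31-base words that each reference transcript holds in common with another gene was counted, 31 bases being the default word of that program and the study's own setting not given in the sources used here. It was over 20% in 8 members, IRF9, XAF1, IFITM1, IFITM3, USP18, IRF1, IFI6 and SP110, and under 5% in 30. For IFI6 the partner was LINC02574, with at most 9 counts in a library, and for USP18 it was USP41, with at most 3. For IRF1, the antisense gene IRF1-AS1 had 93 to 119 counts per library, and its groups overlapped. IFI27, IFI44L, LGALS3BP, DDX60, HERC5 and RSAD2 were not among these 8.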

How the data were processed

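RNA from cells labelled MDA-MB-453 was sequenced in 6 libraries. Reads were trimmed by the authors with Trim Galore and assigned to GENCODE transcripts (hg19) with kallisto v0.46.0. The deposited table holds the resulting estimated counts (expected counts), added up over the transcripts of a gene, in whole numbers and not normalized. Counts were scaled by TMM and tested in edgeR v4.0.16 (R v4.3.3) by the quasi-likelihood test, without a covariate, on 17320 genes passing its expression filter (minimum count 10). FDR is the Benjamini-Hochberg adjusted p (threshold 0.05). The precision is set by 19739247 to 21289740 counts per library, at which 1 CPM is 19.6 to 21.2 counts, and a biological coefficient of variation of 1.85%. No 2 libraries of a group agreed within sampling noise (chi-square per degree of freedom 1.35 to 1.69), and each was counted as 1 replicate. That spread does not show that the libraries came from independent cultures. Replicate numbers were not used as pairs. Symbols, lengths and GRCh37 coordinates came from GENCODE v44, and promoters from RefSeq.

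Every member is accounted for. Values of every library are given for members called with at least a 1.2-fold change, for the lowest FDR in each role and for the transcription factors, and HERC5, RSAD2, ADAR and IFI44 were added after their values had been seen. Outside the members, up to 8 called genes of each pathway list were named by lowest FDR. The members and lists were chosen with earlier results of these data known. The procedure was tested on simulated counts. Alternatives were DESeq2 v1.42.0, limma-voom (limma v3.58.1), RLE size factors, 2 other filters, a GC correction, a replicate block, and each library left out. A gene of the signalling list and a luminal marker are not reported here, although counts over all pathway genes include the former.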

Additional observations from a re-analysis of the deposited data

How the results depend on the processing

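Of the 28 calls among the interferon-stimulated genes, 21 (19 higher, 2 lower) were made under each of 14 alternatives, and none of the 28 changed direction. With each library left out in turn, 20 to 24 members were called higher and 2 to 5 lower, 6 to 8 were called and at least 1.2-fold different, 33 to 36 did not overlap, and the median log2 fold change ran from 0.0926 to 0.1252. Groups of 2 and 3 libraries separate more easily than 3 and 3, so the count without overlap cannot show stability. The lowest number of downregulated members, 2, came without si-N6AMT1 replicate 3, when RSAD2 (edgeR FDR = 0.0729) and ADAR (0.154) lost their calls. RSAD2 also lost its call without si-CN replicate 1 (0.0623), and ADAR without si-N6AMT1 replicate 2 or si-CN replicates 2 and 3 (up to 0.124). IFIT5, IFIH1, PARP14 and BST2 lost theirs without si-N6AMT1 replicate 1 (0.161, 0.0580, 0.0659 and 0.0659) and in 2 to 4 further omissions each. BST2 and ISG15 also lost theirs under the GC correction, with (0.152 and 0.426) and without (0.119 and 0.308) the block. Conversely, STAT2 (0.0128) and EIF2AK2 (0.0167) were called without si-N6AMT1 replicate 1 and MX1 (0.0439) without si-N6AMT1 replicate 3. The replicate numbers did not pair the samples (correlations of same-numbered libraries -0.119, -0.0888 and 0.00647 over 10103 genes). With the replicate number as a block, 23 members were higher and 3 lower, and with the block and a GC correction 22 and 2. Under a GC correction with and without the block, the uncalled IRF7 turned to -0.0556 and -0.0558, SAMD9L to 0.0248 and 0.0260 and SP110 to 0.0023 and 0.0024. With libraries left out, 4 uncalled members changed sign, IRF7 (-0.0025 to 0.0194), SAMD9L (-0.0386 to 0.0278), SP110 (-0.0540 to 0.0245) and TRIM25 (-0.0342 to 0.0230). DESeq2 called 13 pathway genes outside the members higher, against 24 in edgeR, and 796 of all genes higher and 1136 lower, against 1694 and 1993. The cause was not tested. Members with low counts, MX1 and XAF1 among them, carry the widest errors, and changes under about 1.2-fold rest on the small spread between these libraries.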
